A study of Mus musculus with 12 samples.

Results

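The genes that load peptides onto major histocompatibility complex molecules and carry them to the cell surface were followed in the adrenal medulla of mice with and without gut microbes. The set was given as 10 gene symbols, and where a gene had several annotated probe sets, the one with the highest average across the 12 arrays stood for it. Of these, 9 were measured, out of 19505 genes in all, and 1 was not annotated on the array table and is not analysed here. The 9 are H2-Aa, H2-Ab1, H2-Eb1 and Ciita of the class II pathway and B2m, H2-K1, H2-D1, Tap1 and Psmb8 of the class I pathway. The genes lie on chromosome 17 in 7 cases, on chromosome 2 for B2m and on chromosome 16 for Ciita.

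Class II molecules are pairs of an alpha and a beta chain that show peptides from engulfed material to helper T cells. They are made mainly by macrophages, dendritic cells and B cells, and in the gut also by epithelial cells. Ciita switches class II genes on, together with the factors RFX and NF-Y, which bind the X and Y boxes of their promoters. Class I molecules show peptides from a cell's own proteins to cytotoxic T cells on nearly all nucleated cells, and interferon gamma raises both pathways. The adrenal medulla consists mainly of chromaffin cells, which secrete adrenaline during hypoglycemia, with resident macrophages and a dense capillary bed between them.

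RNA was taken from the adrenal medulla of male C57Bl6 mice in 4 groups of 3 animals. Mice raised germ-free, without microbes, were given insulin or saline, and normally colonized mice of the same strain were given insulin or saline. All animals were fasted for 3 h, injected intraperitoneally with 2 IU/kg of human insulin or the same volume of saline, and killed 90 min later. RNA came from whole dissected tissue, so that fewer cells of a type and less RNA per cell cannot be told apart. Values are log2 intensities from Affymetrix arrays, and every difference below is a difference of log2 values. A gene was called changed at a limma adjusted p under 0.05, with the adjustment over all 19572 probe sets with 1 gene symbol.

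The tissue label was checked against marker lists. Chromaffin markers were present at group means of 9.75 (germ-free insulin), 10.38 (germ-free saline), 10.79 (colonized insulin) and 10.66 (colonized saline), and adrenal cortex markers were present as well, at group means between 12.75 and 13.00. Markers of adipocytes, hepatocytes and intestinal epithelium varied widely between arrays. Adipocyte markers averaged 10.66 in germ-free insulin, 9.57 in germ-free saline, 7.12 in colonized insulin and 8.80 in colonized saline mice, and colonized saline animal 2 stood apart with an adipocyte mean of 10.62 and a hepatocyte mean of 10.95. The mean of the negative control probes was 5.46 to 5.67 on germ-free arrays and 4.92 to 5.04 on colonized arrays. The groups do not overlap, so that colonization state and this array background cannot be told apart. Of the 9 genes, 8 lay above the negative control mean of their array on all 12 arrays, and Ciita did so on 6 of 12.

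Promoter windows of 4 genes are shown because the regulation of each class is known for short binding motifs just upstream of its genes. They cover 250 bases before to 50 bases after the gene start as given by RefSeq, assembly GRCm38.p6, and 7 of the 9 genes had a window. Capitals mark matches, on either strand, to the motifs CTGATTGG (the Y box), GGGATTCCC (core of the kappa B site of class I enhancer A), TTTCACTTC (core of the interferon-stimulated response element of class I genes), AGCAACNGA (core of the class II X box) and TGACGTCA (the cyclic AMP response element, which is also the X2 part of a class II X box).
H2-Aa, chr17:34287774-34288073, minus strand: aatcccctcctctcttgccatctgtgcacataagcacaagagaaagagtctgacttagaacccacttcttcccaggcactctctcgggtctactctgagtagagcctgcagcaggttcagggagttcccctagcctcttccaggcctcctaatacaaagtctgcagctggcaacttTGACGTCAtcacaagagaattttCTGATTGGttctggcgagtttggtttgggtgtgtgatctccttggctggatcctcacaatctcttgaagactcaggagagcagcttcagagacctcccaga
H2-Eb1, chr17:34305617-34305916, plus strand: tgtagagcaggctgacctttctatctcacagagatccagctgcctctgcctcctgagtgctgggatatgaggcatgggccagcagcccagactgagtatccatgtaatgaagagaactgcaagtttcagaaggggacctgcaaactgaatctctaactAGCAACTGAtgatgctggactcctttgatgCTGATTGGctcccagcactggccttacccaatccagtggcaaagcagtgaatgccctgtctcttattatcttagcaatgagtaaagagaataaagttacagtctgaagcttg
H2-K1, chr17:34000298-34000597, minus strand: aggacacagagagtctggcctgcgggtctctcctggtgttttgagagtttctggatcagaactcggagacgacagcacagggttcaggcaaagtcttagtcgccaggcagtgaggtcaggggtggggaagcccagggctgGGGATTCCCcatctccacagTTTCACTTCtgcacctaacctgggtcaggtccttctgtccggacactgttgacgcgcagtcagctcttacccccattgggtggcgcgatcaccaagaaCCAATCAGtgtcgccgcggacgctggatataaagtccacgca
H2-D1, chr17:35262844-35263143, plus strand: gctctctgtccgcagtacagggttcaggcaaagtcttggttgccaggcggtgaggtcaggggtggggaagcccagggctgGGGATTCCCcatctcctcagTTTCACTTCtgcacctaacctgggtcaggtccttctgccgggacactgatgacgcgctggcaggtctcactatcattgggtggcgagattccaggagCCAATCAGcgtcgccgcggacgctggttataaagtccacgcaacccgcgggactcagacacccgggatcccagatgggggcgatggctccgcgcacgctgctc
Matches to the Y box motif were found in 5 of the 7 windows, against 4.1% of 32851 RefSeq windows of that length. In H2-Aa and H2-Eb1 they were on the forward strand, starting at -51 and -62 from the gene start. In H2-D1 (-53), Tap1 (-222) and H2-K1 they were on the reverse strand, and in H2-K1 after the gene start, at 9. The kappa B motif and the interferon motif were found in H2-K1 and H2-D1, against 0.353% and 0.505% of all windows. The X box motif was found in H2-Eb1 (1.34% of all windows) and the X2 motif in H2-Aa (1.79%). None of these motifs overlapped another in the 7 windows, and the motif letters were settled with the windows known. A match is a description of the letters, and a window without one says nothing about binding. The H2-K1 and H2-D1 windows were identical at 206 of 227 aligned bases (90.7%), and these genes are close paralogs. Their probes may bind transcripts of both genes, and their values are uncertain as separate measurements.

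**Figure D1:**
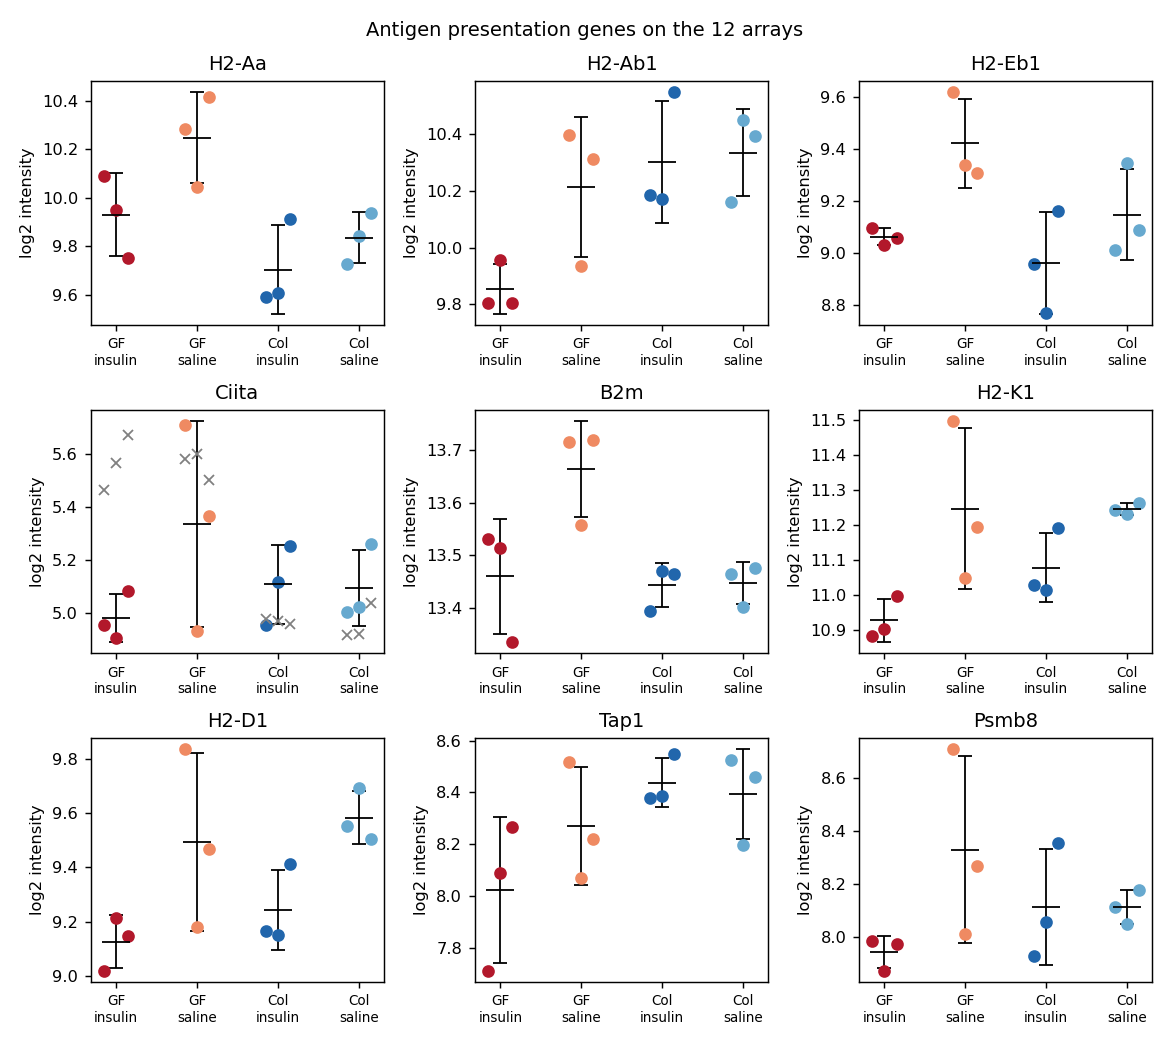
Log2 intensity of each of the 9 genes (y axis) on the 12 arrays by group (x axis; GF, germ-free; Col, colonized). Points are animals, bars are the mean with SD (n = 3), and grey crosses in the Ciita panel are the negative control means of the same arrays; the germ-free saline arrays of H2-Aa, at 10.04 to 10.41, lie above its colonized arrays, at 9.59 to 9.94, and 7 of the 9 genes have their lowest array in germ-free insulin mice.

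The first question was whether the absence of gut microbes goes with another level of these genes. Averaged over both treatments, H2-Aa, the alpha chain of the class II molecule I-A, was higher in germ-free mice, while its partner H2-Ab1, the beta chain, had a lower mean that missed the threshold. Of the 9 genes, 1 was called, against 17.6% of all probe sets (6.14% called higher), and 3 had an unadjusted p under 0.05, against 31.4% of all. In none of the 9 did the 6 germ-free and 6 colonized arrays separate, against 8.01% of all probe sets. The median difference of the 9 was 0.024, beside -0.032 over all genes. The share of called genes is near that over all probe sets.

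H2-Aa measured 10.09, 9.95 and 9.75 in germ-free insulin mice and 10.28, 10.04 and 10.41 in germ-free saline mice. In colonized mice it measured 9.59, 9.61 and 9.91 after insulin and 9.73, 9.84 and 9.94 after saline. Germ-free saline arrays were all above the colonized saline arrays, whereas the ranges overlapped after insulin. The mean over treatments was higher in germ-free mice by 0.32 ± 0.096 (SE), a 1.25-fold difference (limma adjusted p = 0.0388). The call was lost with a covariate for adipocyte (limma adjusted p = 0.33), cortex (0.0841) or macrophage and leukocyte markers (0.0765). With intestinal markers (0.895) or the negative controls (0.999) as covariate it was lost as well. Negative control means separate germ-free from colonized arrays, and intestinal markers were high in germ-free saline mice only. The fits with these covariates therefore cannot tell them apart from the groups. The call was also lost when animal 1, 4, 5, 7, 9, 10 or 11 was left out, with adjusted p between 0.0780 and 0.0913.

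H2-Ab1 measured 9.80, 9.96 and 9.80 in germ-free insulin mice and 10.40, 9.93 and 10.31 in germ-free saline mice. In colonized mice it measured 10.18, 10.17 and 10.55 after insulin and 10.16, 10.45 and 10.39 after saline. All germ-free insulin arrays were below all colonized insulin arrays, and the saline ranges overlapped. The mean over treatments differed by -0.28 ± 0.10, with a limma adjusted p of 0.081. H2-Eb1, the beta chain of the class II molecule I-E, measured 9.10, 9.03 and 9.06 in germ-free insulin mice, 9.62, 9.34 and 9.31 in germ-free saline mice, 8.96, 8.77 and 9.16 in colonized insulin mice and 9.01, 9.35 and 9.09 in colonized saline mice. The germ-free and colonized ranges overlapped under each treatment, and its difference was 0.19 ± 0.094 (limma adjusted p = 0.196). C57BL/6 mice make no I-E at the cell surface, because their Ea gene is defective, so that the H2-Eb1 transcript has no partner there.

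Ciita measured 4.95, 4.91 and 5.08 in germ-free insulin mice, 5.71, 4.93 and 5.37 in germ-free saline mice, 4.95, 5.12 and 5.25 in colonized insulin mice and 5.00, 5.02 and 5.26 in colonized saline mice. Its groups overlapped throughout, and its difference of 0.057 ± 0.12 (limma adjusted p = 0.789) lies at the level of the negative controls.

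The differences of the class II genes with colonization had both signs, and the gap between 2 genes was also read within each array. On every germ-free array the difference H2-Aa minus H2-Ab1 was -0.11 to 0.28 (mean 0.053 ± 0.14, SD, n = 6), against -0.64 to -0.44 on colonized arrays (mean -0.55 ± 0.085, SD, n = 6). H2-Eb1 minus H2-Ab1 was -1.0 to -0.60 on germ-free arrays (mean -0.79 ± 0.15) and -1.40 to -1.11 on colonized arrays (mean -1.26 ± 0.12). Neither pair of ranges overlapped. B2m minus H2-K1 was read in the same way, and its ranges did overlap, at 2.22 to 2.65 on germ-free arrays and 2.17 to 2.46 on colonized arrays. These differences within an array were chosen after their values were seen and were not tested. How many other gene pairs separate in this way was not counted. For the gaps to H2-Ab1 the values show an unequal shift of the 2 genes between states without saying which one shifted. Array background also separates the states, so that a change of the genes and an effect of background cannot be told apart.

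**Figure D2:**
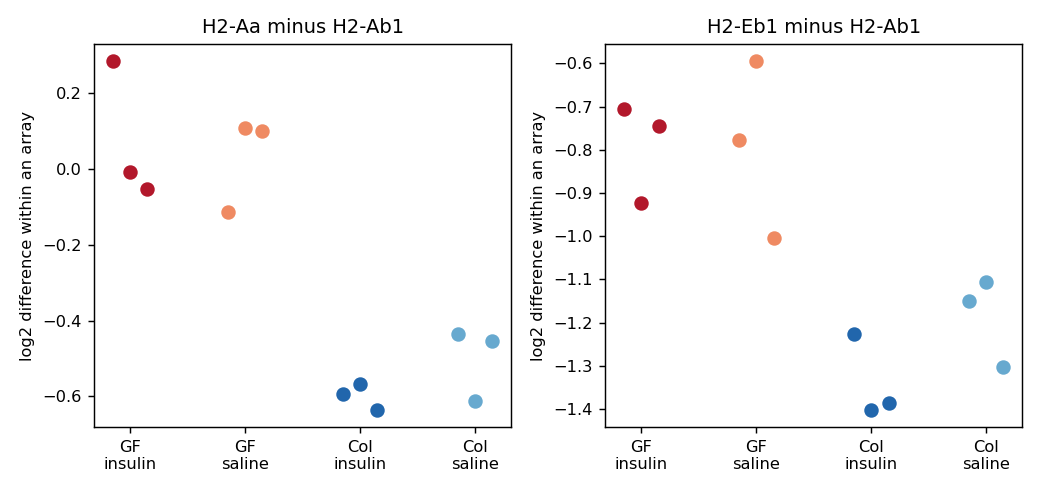
Log2 difference within each array (y axis) of H2-Aa minus H2-Ab1 (left) and H2-Eb1 minus H2-Ab1 (right) by group (x axis; GF, germ-free; Col, colonized; 3 arrays each). Points are arrays; all 6 germ-free arrays lie above all 6 colonized arrays in both panels, at -0.11 to 0.28 against -0.64 to -0.44 for H2-Aa minus H2-Ab1.

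Among class I genes, Tap1, a subunit of the transporter that moves peptides into the endoplasmic reticulum, had the lowest difference. It measured 7.71, 8.09 and 8.26 in germ-free insulin mice, 8.52, 8.07 and 8.22 in germ-free saline mice, 8.38, 8.39 and 8.55 in colonized insulin mice and 8.53, 8.20 and 8.46 in colonized saline mice. All germ-free insulin arrays were below the colonized insulin arrays, and the saline ranges overlapped. The difference over treatments was -0.27 ± 0.11, with a limma adjusted p of 0.121.

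B2m, the light chain shared by class I molecules, measured 13.53, 13.51 and 13.33 in germ-free insulin mice, 13.72, 13.56 and 13.72 in germ-free saline mice, 13.39, 13.47 and 13.46 in colonized insulin mice and 13.46, 13.40 and 13.48 in colonized saline mice. Germ-free saline arrays were above all colonized saline arrays, and insulin ranges overlapped. Its difference was 0.12 ± 0.068 (limma adjusted p = 0.264), and its level is near the top of the table, whose highest value is 13.91.

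The heavy chain H2-K1 measured 10.88, 10.90 and 11.00 in germ-free insulin mice, 11.50, 11.05 and 11.19 in germ-free saline mice, 11.03, 11.01 and 11.19 in colonized insulin mice and 11.24, 11.23 and 11.26 in colonized saline mice. H2-D1, the other heavy chain, measured 9.02, 9.21 and 9.15 in germ-free insulin mice, 9.84, 9.18 and 9.47 in germ-free saline mice, 9.16, 9.15 and 9.41 in colonized insulin mice and 9.55, 9.69 and 9.51 in colonized saline mice. In germ-free saline mice animal 7 was the highest array of both genes. Their differences over treatments were -0.075 ± 0.083 and -0.10 ± 0.11, with limma adjusted p of 0.585 and 0.562. Psmb8, an inducible subunit of the immunoproteasome, measured 7.98, 7.87 and 7.97 in germ-free insulin mice, 8.71, 8.01 and 8.27 in germ-free saline mice, 7.93, 8.05 and 8.35 in colonized insulin mice and 8.11, 8.05 and 8.18 in colonized saline mice. Its groups overlapped, and its difference was 0.024 ± 0.12 (limma adjusted p = 0.916).

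Within saline alone none of the 9 was called, against 6.9% of all probe sets, and H2-Aa and B2m were the 2 genes whose groups did not overlap, against 27.3% of all and 11% wholly higher in germ-free mice. H2-Aa was 0.41 ± 0.14 higher in germ-free saline mice (limma adjusted p = 0.0900) and B2m 0.22 ± 0.096 (0.19). Within insulin none was called, against 7.77% of all probe sets, and H2-Ab1, Tap1 and H2-K1 did not overlap, against 31.8% of all and 19.8% wholly lower in germ-free mice. H2-Ab1 differed by -0.45 ± 0.15 between germ-free and colonized insulin mice (limma adjusted p = 0.0876), Tap1 by -0.42 ± 0.16 (0.14) and H2-K1 by -0.15 ± 0.12 (0.511). At an unadjusted p under 0.05 the counts were 2 of 9 after saline, against 24% of all probe sets, and 2 of 9 after insulin, against 22.5%.

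The second question was how these genes differ between mice given insulin and mice given saline. In germ-free mice all 9 had a lower mean after insulin, but none was called, against 0.439% of all probe sets. At an unadjusted p under 0.05 the count was 6 of 9, against 8.31% of all. The differences ran from -0.39 for Psmb8 to -0.21 for B2m, with a median of -0.36, beside 0.0063 over all genes, 48.4% of which were below 0. H2-Eb1 differed by -0.36 ± 0.13 (limma adjusted p = 0.441), H2-K1 by -0.32 ± 0.12 (0.442), Psmb8 by -0.39 ± 0.16 (0.538) and B2m by -0.21 ± 0.096 (0.607). These were the 4 genes whose insulin arrays were all below the saline arrays, against 10.1% of all probe sets that lay wholly lower. The 9 genes were read on the same arrays, so that counts over them, here and below, are not counts of separate observations.

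The germ-free saline arrays were not alike. Animal 7 was the highest of the 3 for 7 of the 9 genes and the highest of all 12 arrays for 5, and animal 8 was the lowest of the 3 for 8. Without animal 7 the 9 differences lay between -0.30 and -0.12. Intestinal epithelium markers moved the same way: their mean over 14 genes was 5.09, 5.07 and 4.89 in germ-free insulin mice and 8.19, 6.63 and 7.31 in germ-free saline mice, beside 4.84 to 4.96 in colonized insulin mice and 4.94 to 5.17 in colonized saline mice. Reg1, a secreted lectin-like protein of the gut, was at 10.37, 8.33 and 8.83 in germ-free saline mice, against 3.54 to 3.93 on the other arrays. Reg3g, which is also listed, stayed at 4.16 to 4.98. In germ-free insulin against germ-free saline mice 12 of the 14 intestinal markers were below 0 (median -2.45), and 7 were called lower by limma. Over all probe sets 0.439% were called. With the intestinal mean as a covariate all 9 differences in germ-free mice changed sign. This covariate was high in germ-free saline mice only, so that the fit cannot tell it apart from the group. No conclusion is drawn from these sign changes. Other marker lists were read in the same comparison. Chromaffin markers averaged 9.53 to 10.03 in germ-free insulin mice and 10.33 to 10.45 in germ-free saline mice, with 12 of 12 below 0, a median difference of -0.55 and 3 called lower. Macrophage markers were below 0 in 12 of 13 (median -0.12) and leukocyte markers in 4 of 5 (median -0.19). Hepatocyte markers were below 0 in 6 of 7 (median -1.49), and adipocyte markers were above 0 in 7 of 7 (median 0.76). No marker of these last 4 lists was called by limma, and at an unadjusted p under 0.05 the macrophage list had 1 lower and 1 higher, the hepatocyte list 1 lower, the adipocyte list 1 higher and the leukocyte list 0. The part of these cell types in the insulin differences was not tested.

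**Figure D3:**
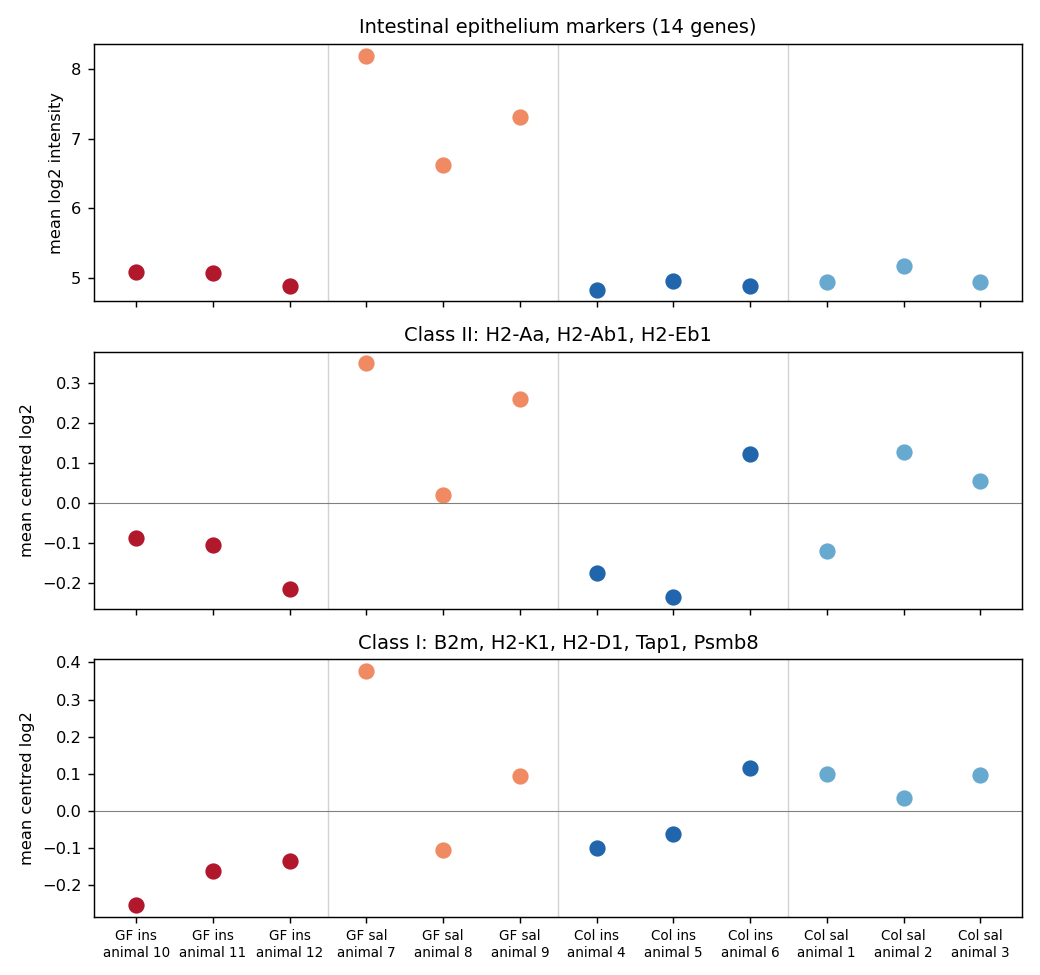
Mean log2 intensity of 14 intestinal epithelium markers (top) and mean centred log2 values of 3 class II genes (middle) and 5 class I genes (bottom) on each array (x axis; GF, germ-free; Col, colonized; ins, insulin; sal, saline). Each point is 1 array; germ-free saline animal 7 is highest in all 3 panels (8.19, 0.35 and 0.38), and animal 8 is the lowest germ-free saline array in each.

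In colonized mice none of the 9 was called after insulin, against 0.153% of all probe sets, and 1 had an unadjusted p under 0.05, against 11.8%. The difference was below 0 in 7 of 9, against 49% of all, with a median of -0.033, beside 0.0047 over all genes. H2-D1 was -0.34 ± 0.15 (limma adjusted p = 0.409) and H2-K1 -0.17 ± 0.12 (0.578), and in both all insulin arrays lay below the saline arrays, against 6.55% of all probe sets. The other 7 genes differed by -0.18 to 0.044.

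Averaged over colonization states all 9 differences were below 0, against 48.1% of all probe sets, from -0.35 for H2-D1 (limma adjusted p = 0.238) to -0.10 for Tap1 (0.814). None was called, against 0.419% of all probe sets, and 4 had an unadjusted p under 0.05, against 10.3%. The insulin response itself was then compared between germ-free and colonized mice. The differences of insulin effects lay between -0.39 for Psmb8 and -0.026 for H2-D1, with limma adjusted p of 0.614 to 0.981, and all 9 were below 0, against 50.4% of all probe sets. None was called, against 0.0358% of all probe sets, and none had an unadjusted p under 0.05, against 9.97%. Their 95% intervals all held 0 and reached from -0.89 to 0.44. The plot of differences gives the single comparisons side by side; comparisons that use the same group share its arrays.

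**Figure D4:**
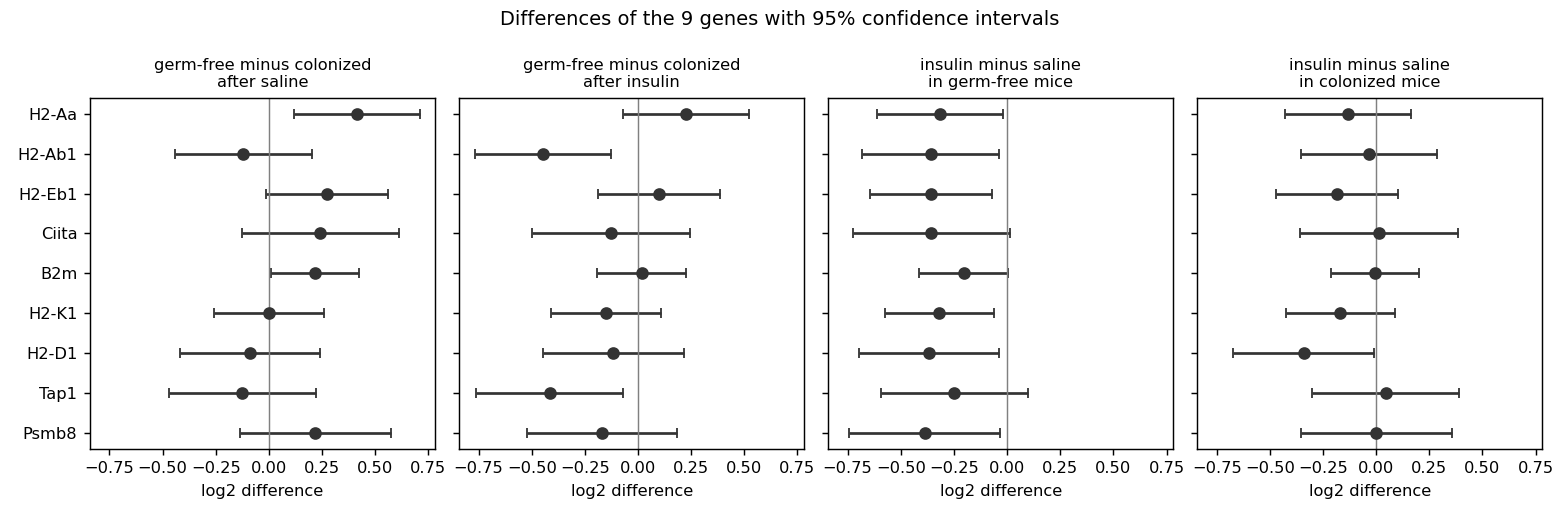
Log2 differences of the 9 genes (x axis) with 95% confidence intervals from limma, in 4 comparisons (panels) of 3 arrays against 3. Points are estimates and horizontal bars the intervals, which are not adjusted for the number of genes; all 9 points lie left of 0 for insulin minus saline in germ-free mice (-0.39 to -0.21), and none of the 36 differences was called.

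The genes differed in how closely they ran together over the 12 arrays. Of 36 pairs, 15 had an adjusted permutation p under 0.05 for Pearson's r, and 33 had r above 0. The permutations mixed all 12 arrays across the 4 groups, so that shifts between groups enter r and its p. Such shares were not counted for other gene pairs, and the counts are not read as particular to these genes. H2-K1 and H2-D1 gave r = 0.94 (permutation p adjusted over the pairs = 0.00108) and rho = 0.90 (0.0054), with r = 0.885 without the 2 farthest arrays. Within germ-free and colonized arrays r was 0.966 and 0.923 (exact permutation p = 0.0111 and 0.0208, n = 6 each, or 0.0556 and 0.364 adjusted over the pairs). The probes of H2-K1 and H2-D1 may bind transcripts of both genes, so that this r may not compare separate measurements. Ciita and Psmb8 gave r = 0.95 (adjusted permutation p = 0.00162) and rho = 0.85 (0.0113), with r = 0.833 without the 2 farthest arrays. Their r was 0.973 within germ-free arrays and 0.829 within colonized arrays (exact permutation p = 0.0139 and 0.0319, n = 6 each, or 0.0556 and 0.364 adjusted), and rho was 0.771 in each (exact permutation p = 0.103). Ciita was above the negative control mean on only 6 of the 12 arrays. No pair reached an adjusted p under 0.05 within either state. With 6 arrays the exact permutation p has a lowest possible value. A pair alone at that value could not pass after adjustment over 36 pairs, so no conclusion is drawn from this absence.

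H2-Aa and B2m gave r = 0.88 (adjusted permutation p = 0.0018) and rho = 0.86 (0.00954), and r = 0.662 without the 2 farthest arrays. It was 0.970 within germ-free and 0.318 within colonized arrays (exact permutation p = 0.00417 and 0.469, n = 6 each, or 0.0556 and 0.748 adjusted), and the difference between these correlations was not tested. The class II partners H2-Aa and H2-Ab1 gave r = 0.13 (adjusted permutation p = 0.725) and rho = 0.042 (0.930) over all arrays, and -0.20 without the 2 farthest. Within germ-free arrays r was 0.837 and within colonized arrays 0.864 (exact permutation p = 0.0431 and 0.0667, n = 6 each, or 0.0889 and 0.364 adjusted). All arrays share the differences in background and tissue makeup described above.

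Genes with the pattern most like the class II genes over 12 arrays were 9930111J21Rik1 (r = 0.92), 9930111J21Rik2 (0.89), Wnt2 (0.88), Zfp114 (0.88), Anpep (0.86), Ugt2b34 (0.85), Sult1d1 (0.85) and Tm6sf2 (0.85). Anpep, a peptidase of the intestinal brush border, was -1.91 in germ-free insulin against germ-free saline mice. The genes most like the class I pattern were H2-Q1 (r = 0.92), Samhd1 (0.92), Gbp9 (0.88), Zfp114 (0.88), Tgtp2 (0.86), Ikzf1 (0.85), Calml4 (0.85) and Gbp2 (0.85). Gbp2, Gbp9 and Tgtp2 encode interferon-inducible GTPases, H2-Q1 is a further class I heavy chain, and Gbp2 differed by -0.74 between germ-free insulin and germ-free saline mice. The likeness is a description over 12 arrays that share the same animals.

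The other genes measured from the pathway lists numbered 58 and were tested by the same fit. They are 44 genes of the class I and class II lists, 5 standard proteasome subunits and 9 interferon gamma signalling genes. In germ-free against colonized mice over both treatments, 1 was higher and 10 were lower, which is 19% called, beside 17.6% of all probe sets, and 17.2% lower, beside 11.5%. Of the 44 class I and class II genes alone, 1 was higher and 7 were lower, which is 18.2% called and 15.9% lower. The median of the 58 was -0.098. For the insulin comparisons none of the 58 was called by limma, and some had an unadjusted p under 0.05. These were 11 (19%) in germ-free mice, against 8.31% of all probe sets, 8 (13.8%) in colonized mice, against 11.8%, and 12 (20.7%) over both states, against 10.3%. For the difference of effects the count was 4 (6.9%), against 9.97%.

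Among regulators of class II transcription, 5 of 6 other genes had a difference below 0 and 2 were called lower, against 11.5% of all probe sets. Both are subunits of RFX. Rfx5 differed by -0.55 ± 0.10 (limma adjusted p = 0.00381) and Rfxank by -0.43 ± 0.085 (0.00512). Neither had an overlap of germ-free and colonized arrays, against 8.01% of all probe sets without overlap. Rfxap, the third subunit of RFX, differed by -0.078 ± 0.083 (0.567) and was not called. Of the 12 genes of class II loading and processing, 2 were called lower, against the same 11.5% of all probe sets. These were the lysosomal proteases Ctsl (-0.47 ± 0.072, 0.00145) and Lgmn (-0.45 ± 0.097, 0.00860). H2-DMb2, a chain of the peptide-exchange factor, was 0.36 higher without a call (0.0588). Macrophage markers, 13 of 14 measured, averaged 7.49 and 7.62 in germ-free insulin and saline mice and 7.67 and 7.82 in colonized insulin and saline mice. In that comparison 6 of the 13 were called lower and 0 higher, against 11.5% of all probe sets called lower. Of the chromaffin markers 8 of 12 were called lower (median -0.59), and of the endothelial markers 2 of 7 (median -0.18), beside the same share of all probe sets. Endothelial markers averaged 9.78 and 9.83 in germ-free insulin and saline mice and 10.01 in both colonized groups. The part of these cell types in the differences of Ctsl and Lgmn was not tested.

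Over all probe sets 6.14% were called higher and 11.5% lower in this comparison. Of 14 further class I chains, Cd1d1, which presents lipids, rose by 0.33 ± 0.085 (limma adjusted p = 0.0200), and H2-T23, the gene of Qa-1, fell by 0.35 ± 0.076 (0.00904). H2-Q10 (0.48, adjusted p = 0.230) and H2-T3 (0.32, 0.0645) did not pass. Of 7 other genes of peptide loading, Tap2, the partner of Tap1 in the transporter, fell by 0.43 ± 0.098 (0.0113), and Tapbpl, a peptide editor, fell by 0.32 ± 0.077 (0.0153). None of the 4 other immunoproteasome genes was called by limma (1 at unadjusted p under 0.05), with Psme1 at -0.18 (0.0647). Among standard proteasome subunits Psma3 fell by 0.24 ± 0.066 (0.0267). Psmb6 (0.19, 0.0723), Psma1 (0.15, 0.230) and Psmb7 (-0.052, 0.664) were not called. Of 9 interferon gamma signalling genes, the inhibitor Socs1 fell by 0.38 ± 0.095 (0.0182) and the kinase Jak1 by 0.24 ± 0.070 (0.0350). The remaining genes named from the class I, class II and interferon lists were not called. In class II they were the chain H2-Eb2 (-0.12), the lysosomal thiol reductase Ifi30 (-0.24) and the NF-Y subunits Nfya (-0.27) and Nfyc (0.12). In class I they were the chaperones Pdia3 (-0.20) and Calr (-0.17), the immunoproteasome subunits Psmb10 (-0.12) and Psmb9 (-0.11) and the activator subunit Psme2 (0.088), and among interferon factors Irf8 (-0.24) and Irf2 (0.23). These lists overlap in function with the 9 genes and were chosen with earlier results of these data known.

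**Figure D5:**
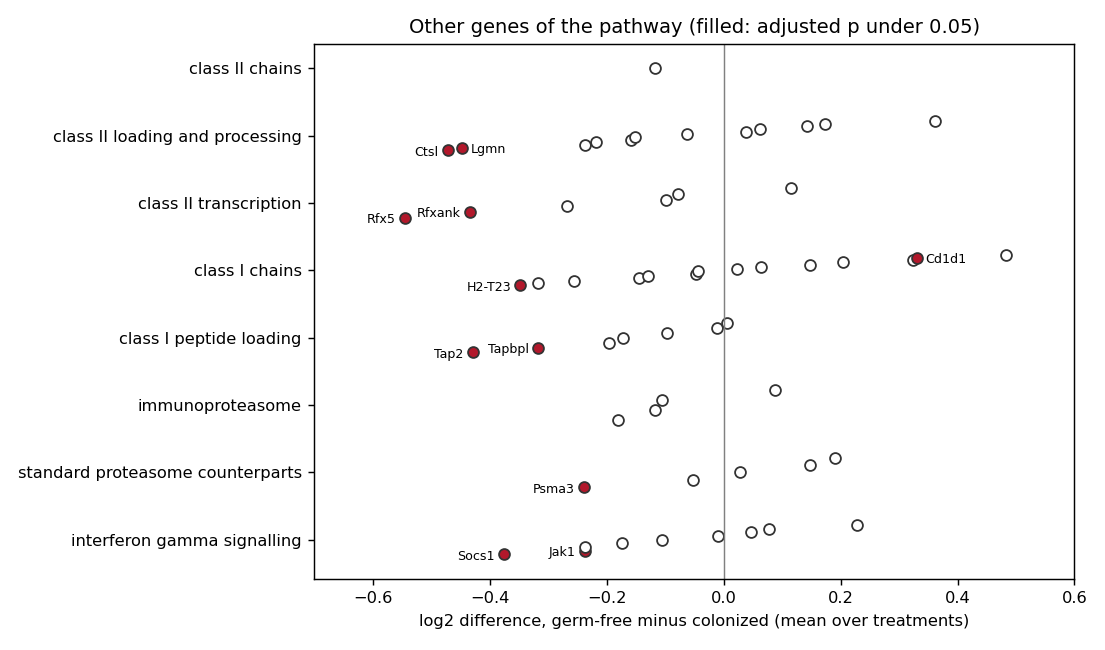
Log2 difference between germ-free and colonized mice, mean over treatments (x axis), of 58 other genes of the pathway grouped by list (y axis). The list labelled standard proteasome counterparts holds the standard proteasome subunits of the text. Each point is a gene, filled where the limma adjusted p is under 0.05; of the 11 filled points, 10 lie left of 0 and Cd1d1 lies right of it.

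Markers of other immune cells were read as well. Dendritic cell markers averaged 5.80 in germ-free insulin, 5.79 in germ-free saline, 5.79 in colonized insulin and 5.75 in colonized saline mice. B cell markers averaged 4.62 to 4.75 and T cell markers 5.03 to 5.10 over the groups, close to or below the negative controls. Leukocyte markers averaged 7.29 and 7.49 in germ-free insulin and saline mice and 7.41 and 7.41 in colonized insulin and saline mice. Their part in the differences of the 9 genes was not tested.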

How the data were processed

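Per the submitters' processing notes, the authors deposited log2 values made with RMA (background correction, quantile normalization and a summary per probe set), and limma was named without a version. No source states if RMA was run once over all 12 arrays. The table holds 28846 rows, of which 19572 had 1 gene symbol (19505 genes), and the values were used as deposited. Differences were tested with limma 3.58.1 in R 4.3.3 (1 mean per group, eBayes), with Benjamini-Hochberg adjustment over 19572 probe sets and a call at adjusted p under 0.05. The fit has 8 residual and 4.08 prior degrees of freedom. Pairs of genes were compared by permutation of 100000 draws over 12 arrays, or exactly over 6. Alternatives changed the normalization, the dim probe filter (log2 7.71), array weights and marker covariates, left out each array in turn, and used a covariate for negative controls and the removal of animals 2 and 7 together, the last 2 chosen after the values were seen. Named pathway genes were up to 4 per list with the largest difference between germ-free and colonized mice, plus all called. The genes and lists were chosen with earlier results of these data known. The limma p-values rest on 1 estimate of spread per probe set, shared by the 4 groups of 3 arrays and moderated across probe sets. They do not measure the spread of each group by itself, and the number of arrays limits precision.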

Additional observations from a re-analysis of the deposited data

How the results depend on the processing

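Over 63 differences of the 9 genes and 15 alternatives, 82 of 911 values changed sign, and none of those was called at first. No paired analysis was possible because the replicate numbers run from 1 to 12 and no number is shared between groups. The cause of the sign changes was not tested. A covariate or fewer arrays leaves fewer degrees of freedom, which bears on the p-values and not on the sign. The intestinal covariate gave 37 of the 82 sign changes. It was high in germ-free saline mice only, and negative control means separate germ-free from colonized arrays. Fits with these covariates cannot tell them apart from the groups, and no conclusion is drawn from their values.

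For germ-free against colonized mice over both treatments, the count of called genes was 2 without dim probe sets (H2-Ab1 joined, adjusted p = 0.0473) and with array weights (Tap1, 0.0495), 2 at adjusted p under 0.1, 3 at unadjusted p under 0.05, and 0 with cortex, intestinal, macrophage and leukocyte, or negative control covariates. It ran from 0 to 1 when single arrays were left out. With the adipocyte covariate H2-Ab1 (-0.47, 0.0411) was called in place of H2-Aa, and without animals 2 and 7 Tap1 (-0.38, 0.0296) was. After saline the count was 1 with median centring, without dim probe sets and at adjusted p under 0.1, and 2 unadjusted. After insulin it was 1 without dim probe sets and at adjusted p under 0.1, and 2 unadjusted. For insulin the unadjusted counts were 6 in germ-free mice, 1 in colonized mice and 4 over both. At adjusted p under 0.05 the counts were 0 in every fit that left out 1 array. Unadjusted counts were not made for those fits.

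Sign changes were as follows. Second quantile normalization: insulin in colonized mice, Ciita -0.018, Psmb8 0.049. Median centring there: H2-Ab1 0.011, B2m 0.039, Psmb8 0.044. Array weights: colonization, Ciita -0.0023, Psmb8 -0.0017; after saline H2-K1 -0.033; insulin in colonized mice Ciita -0.11, Tap1 -0.038; difference of effects H2-D1 0.022. Adipocyte covariate: colonization Ciita -0.053, Psmb8 -0.083; saline H2-K1 -0.020; insulin arrays H2-Eb1 -0.18; insulin in colonized mice H2-Ab1 0.11, Psmb8 0.083. Cortex covariate: colonization Psmb8 -3.5e-05; saline H2-D1 0.043; insulin in colonized mice H2-Ab1 0.063, Ciita -0.042, Tap1 -0.11.

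Intestinal covariate: colonization H2-Eb1 -0.065, Ciita -0.49, B2m -0.013, Psmb8 -0.49; saline H2-Eb1 -0.21, Ciita -0.81, B2m -0.029, H2-K1 -0.62, Psmb8 -0.76; insulin in germ-free mice H2-Aa 0.059, H2-Ab1 0.34, H2-Eb1 0.12, Ciita 0.69, B2m 0.042, H2-K1 0.30, H2-D1 0.60, Tap1 0.23, Psmb8 0.59; insulin in colonized mice H2-Ab1 0.0038, B2m 0.0086, Psmb8 0.051; insulin mean H2-Ab1 0.17, Ciita 0.38, B2m 0.025, H2-K1 0.080, H2-D1 0.16, Tap1 0.15, Psmb8 0.32; difference of effects H2-Aa 0.17, H2-Ab1 0.34, H2-Eb1 0.28, Ciita 0.63, B2m 0.033, H2-K1 0.43, H2-D1 0.89, Tap1 0.16, Psmb8 0.54.

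Macrophage and leukocyte covariate: colonization H2-K1 0.039, H2-D1 0.075; saline H2-D1 0.061; insulin arrays Ciita 0.011, H2-D1 0.088, Psmb8 0.022; insulin in colonized mice H2-Ab1 0.069, Psmb8 0.13; insulin mean Tap1 0.028; difference of effects H2-D1 0.027. Negative control covariate: colonization Ciita -0.27; saline H2-Ab1 0.053, Ciita -0.091, H2-K1 -0.21; insulin in colonized mice B2m 0.0028. Without animals 2 and 7: colonization Ciita -0.054, Psmb8 -0.087; saline H2-K1 -0.13, Psmb8 -0.0052; insulin in colonized mice H2-Ab1 0.025, Ciita -0.023, Tap1 -0.055; difference of effects H2-D1 0.090.

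Leaving out single arrays gave ranges that crossed 0: colonization Ciita -0.036 to 0.16, Psmb8 -0.071 to 0.10; saline H2-Ab1 -0.21 to 0.020, H2-K1 -0.13 to 0.099, H2-D1 -0.26 to 0.068; insulin arrays B2m -0.019 to 0.079; insulin in colonized mice H2-Ab1 -0.16 to 0.032, Ciita -0.060 to 0.095, B2m -0.027 to 0.020, Tap1 -0.055 to 0.11, Psmb8 -0.12 to 0.093; difference of effects H2-D1 -0.18 to 0.14. The dim filter gave no value for Ciita, and fits of only the groups compared gave none for means and the difference of effects.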
